A study of Mus musculus with 6 samples.

Results

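The genes described here are 10 imprinted genes of 3 chromosomal domains: Peg3 and Zim1 of the Peg3 domain, Ube3a, Snrpn, Ndn, Magel2 and Mkrn3 of the Prader-Willi domain, and Peg10, Sgce and Ppp1r9a of the Peg10 domain. They were chosen by name, all 10 were measured, and they are 10 of the 18194 genes on the arrays. The choice was made with their levels in these samples known, in particular which were lowest in the intermediate cells. Their values are therefore given as a description, with no p-value, and their calls are counted without being read as a test. Cultured spermatogonial stem cells, the testis cells that maintain sperm production, were profiled in 3 states: unipotent (SSC), intermediate (iSSC) and multipotent (mSSC), with 2 arrays each. All groups came from testes of male ICR mice aged 3 to 5 days and were grown on embryonic fibroblast feeders whose division had been stopped with mitomycin. Stem cell clumps of passages 0 to 1 and 9 to 10 were used, and flattened or embryonic stem cell shaped colonies were kept in germ stem cell medium or moved to an embryonic stem cell medium without serum. The sources used here do not tie an array to a passage or medium. Nor do the labels say whether arrays of a state are separate cultures, so every spread and p-value covers only these 6 samples, and precision is limited by their number.

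Imprinted genes are transcribed mainly from the copy inherited from a given parent. The parental copies are told apart by DNA methylation laid down in the germ line. Each of the 3 domains has a control region whose methylation differs between the egg and the sperm, and neighbouring genes follow it over long distances. Peg3, Snrpn, Ndn, Magel2, Mkrn3, Peg10 and Sgce are paternally expressed in the mouse. Zim1 is maternally expressed, Ube3a is maternal in neurons and biallelic in most other cells, and Ppp1r9a is maternal in some extraembryonic tissues. The arrays measure total RNA and do not separate the parental copies, so a level here says nothing of which copy was read. In cultures of mixed cells, fewer cells of a type and less RNA per cell cannot be told apart.

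The promoters of the genes whose levels differed most are shown first, since these windows hold the start sites of the RNAs described next. RefSeq windows of 300 bases in GRCm38.p6, from 250 bases before a gene's start to 50 after it, were found for 8 of the 10 genes, 12 windows in all. Peg10 and Sgce had none. Each is written 5′ to 3′ on the strand of the gene, and capitals mark motif matches. The motifs were chosen after reading the sequences. The Peg3 window, chr7:6730370-6730669 on the minus strand, holds 1 match to TGACGTCA, the palindromic cyclic AMP response element, which begins at -178 from the start. The Ube3a window, chr7:59228500-59228799 on the plus strand, holds 1 match to AANATGGC, a core of the YY1 site, which begins at -217 from the start. Ppp1r9a had 2 windows on the plus strand, of which chr6:4903061-4903360 is shown, and neither holds any of the motifs searched.
Peg3: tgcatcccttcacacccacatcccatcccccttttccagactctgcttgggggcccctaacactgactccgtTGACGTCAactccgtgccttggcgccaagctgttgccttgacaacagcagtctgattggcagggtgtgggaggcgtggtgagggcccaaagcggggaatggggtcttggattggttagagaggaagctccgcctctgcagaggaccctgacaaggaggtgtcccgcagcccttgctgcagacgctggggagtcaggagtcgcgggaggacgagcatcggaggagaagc
Ube3a: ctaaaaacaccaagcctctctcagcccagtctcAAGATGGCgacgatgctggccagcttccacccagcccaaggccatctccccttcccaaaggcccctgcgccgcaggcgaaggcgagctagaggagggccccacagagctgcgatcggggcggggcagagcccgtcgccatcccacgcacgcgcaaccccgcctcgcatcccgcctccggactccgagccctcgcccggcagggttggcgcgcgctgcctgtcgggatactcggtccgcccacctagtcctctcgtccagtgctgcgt
Ppp1r9a: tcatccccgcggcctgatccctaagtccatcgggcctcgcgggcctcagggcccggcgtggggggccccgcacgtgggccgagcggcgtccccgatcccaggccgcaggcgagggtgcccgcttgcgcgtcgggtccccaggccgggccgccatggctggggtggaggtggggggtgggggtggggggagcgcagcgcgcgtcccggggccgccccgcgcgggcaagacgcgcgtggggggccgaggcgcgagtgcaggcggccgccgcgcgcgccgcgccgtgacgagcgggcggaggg

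Snrpn had 4 windows from alternative starts, and one of them, chr7:60005150-60005449 on the minus strand, is shown beside that of Ndn, chr7:62348027-62348326 on the plus strand. Both hold GCATGCG, a core of the NRF1 site, on both strands, as overlapping matches that share the central bases. All 4 Snrpn windows hold this overlapping pair.
Snrpn: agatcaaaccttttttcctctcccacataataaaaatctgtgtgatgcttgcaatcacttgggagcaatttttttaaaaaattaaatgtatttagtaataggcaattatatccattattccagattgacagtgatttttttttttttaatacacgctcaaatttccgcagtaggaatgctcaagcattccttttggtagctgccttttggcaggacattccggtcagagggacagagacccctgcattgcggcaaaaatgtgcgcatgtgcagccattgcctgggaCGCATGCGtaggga
Ndn: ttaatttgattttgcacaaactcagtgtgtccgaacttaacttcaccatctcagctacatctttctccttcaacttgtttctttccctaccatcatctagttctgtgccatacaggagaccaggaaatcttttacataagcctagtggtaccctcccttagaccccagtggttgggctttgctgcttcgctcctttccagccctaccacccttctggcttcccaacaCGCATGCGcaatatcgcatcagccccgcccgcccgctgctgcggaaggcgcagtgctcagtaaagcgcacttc

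Both strands were searched for each motif in all 32851 promoter windows. TGACGTCA was in 1.79% of them, AANATGGC in 6.05%, GCATGCG in 3.58% and CCGGAAGT, an ETS family core, in 3.89%. The Mkrn3 window, chr7:62420104-62420403, held 1 match to AANATGGC and 2 to CCGGAAGT, and the windows of Zim1 and Magel2 held none. CpG content, the substrate of DNA methylation, ranged widely. The windows shown held 13 CpG for Peg3, 29 for Ube3a, 48 for Ppp1r9a, 7 for Snrpn and 11 for Ndn, against a median of 7 over all windows. The other window of Ppp1r9a, chr6:4902725-4903024, held 10. The windows shown of Peg3, Ube3a and Ppp1r9a all held more CpG than that median. So did those of Ndn, Zim1 (20), Mkrn3 (15) and Magel2 (10). The windows shown of Peg3, Ube3a and Ppp1r9a had none of the searched motifs in common. A match is a description of these letters and not a bound site, since neither methylation nor binding was measured here.

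The 3 genes with an iSSC minimum were Peg3, Ube3a and Ppp1r9a, 1 from each domain. On both iSSC arrays each lay below all 4 other arrays, while SSC and mSSC overlapped for Peg3 and Ube3a. All levels are deposited RMA signals on the log2 scale, and differences are log2 differences of group means ± SE, with n = 2 arrays in each group. Levels of different probe sets are not comparable, so each gene is compared only with itself.

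Peg3, a paternally expressed zinc finger DNA-binding protein known for its part in growth and maternal behaviour, read 10.09 and 9.98 on the SSC arrays, 6.96 and 6.87 on the iSSC arrays, and 10.25 and 9.56 on the mSSC arrays. The iSSC arrays stood far below the rest, and the SSC arrays lay within the range of the mSSC arrays. The group means were 10.04 ± 0.08 in SSC, 6.92 ± 0.06 in iSSC and 9.91 ± 0.49 in mSSC (SD, n = 2). Peg3 was 8.67-fold lower in iSSC than in SSC (-3.12 ± 0.28) and 7.95-fold higher in mSSC than in iSSC (2.99 ± 0.28). Between mSSC and SSC it differed by -0.13 ± 0.28, less than 1 SE. Its neighbour Zim1, a maternally expressed zinc finger gene, read between 3.92 and 4.38 on the 6 arrays. The lower quartile of all probe sets, the measure of background used throughout, lay between 4.23 and 4.38 on the arrays. Zim1 was thus near background throughout, its groups overlapped, and no fold is given.

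Ube3a, the E3 ubiquitin ligase whose loss from the maternal copy causes Angelman syndrome, read 11.47 and 10.97 in SSC, 8.27 and 8.40 in iSSC, and 11.47 and 10.00 in mSSC. Again the iSSC arrays were the lowest, and the mSSC arrays differed from each other more than those of any other member and state. Ube3a was 7.37-fold lower in iSSC than in SSC (-2.88 ± 0.48) and 5.27-fold higher in mSSC than in iSSC (2.40 ± 0.48). The mSSC minus SSC difference was -0.48 ± 0.48, as large as its SE.

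Ppp1r9a encodes neurabin, which binds actin and targets protein phosphatase to it. It read 7.48 and 7.05 in SSC, 5.49 and 5.35 in iSSC, and 7.90 and 8.70 in mSSC. The 3 groups did not overlap, with iSSC lowest and mSSC highest. Ppp1r9a was 3.58-fold lower in iSSC than in SSC (-1.84 ± 0.32) and 7.35-fold higher in mSSC than in iSSC (2.88 ± 0.32). The mSSC minus SSC difference was 1.04 ± 0.32. Ppp1r9a was not among the genes called there, but was with quantile normalization, with median centring and without mSSC replicate 1.

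**Figure D1:**
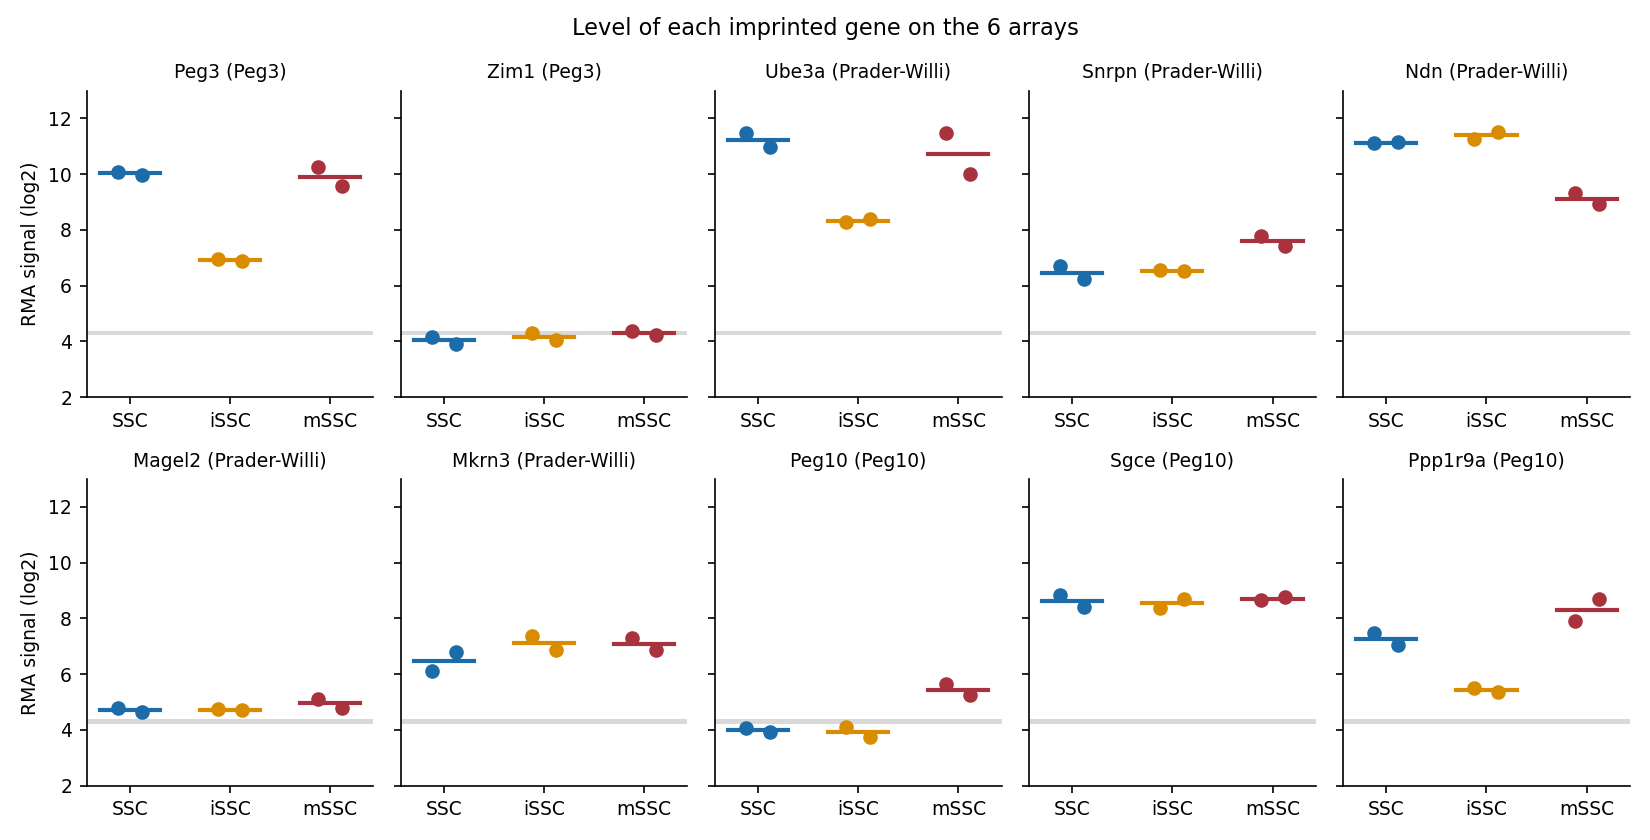
RMA signal (log2) of the 10 genes on each array, 1 panel per gene with its domain in brackets. Dots are arrays, lines are group means (n = 2) and the grey band is the range of the arrays' lower quartiles, 4.23 to 4.38. Peg3, Ube3a and Ppp1r9a dip in iSSC, Ndn drops in mSSC, and Snrpn and Peg10 are highest in mSSC.

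The low iSSC level appeared on most probe sets of these 3 genes. The 10 genes had 31 probe sets with a single symbol, and the one with the highest mean over the 6 arrays stood for its gene. Of the 31, 5 lay below the lower quartile on every array, 2 of Peg3 and 3 of Ndn. Both iSSC arrays were below the other 4 on 3 of the 3 remaining Peg3 probe sets, on 4 of 6 for Ube3a and on 5 of 5 for Ppp1r9a. The size varied with the probe set. The iSSC minus SSC difference was -2.22 and -1.94 on the other Peg3 probe sets, ran from -2.19 to -0.22 on those of Ube3a, and from -1.90 to -0.10 on those of Ppp1r9a. The smallest of these came from dim probe sets. On 1 Ube3a probe set the SSC arrays themselves read 4.06 and 6.68, further apart than any 2 of the group means of that probe set. Taking the mean of all probe sets of a gene gave smaller iSSC minus SSC differences of -1.47 for Peg3, -1.45 for Ube3a and -1.15 for Ppp1r9a.

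**Figure D2:**
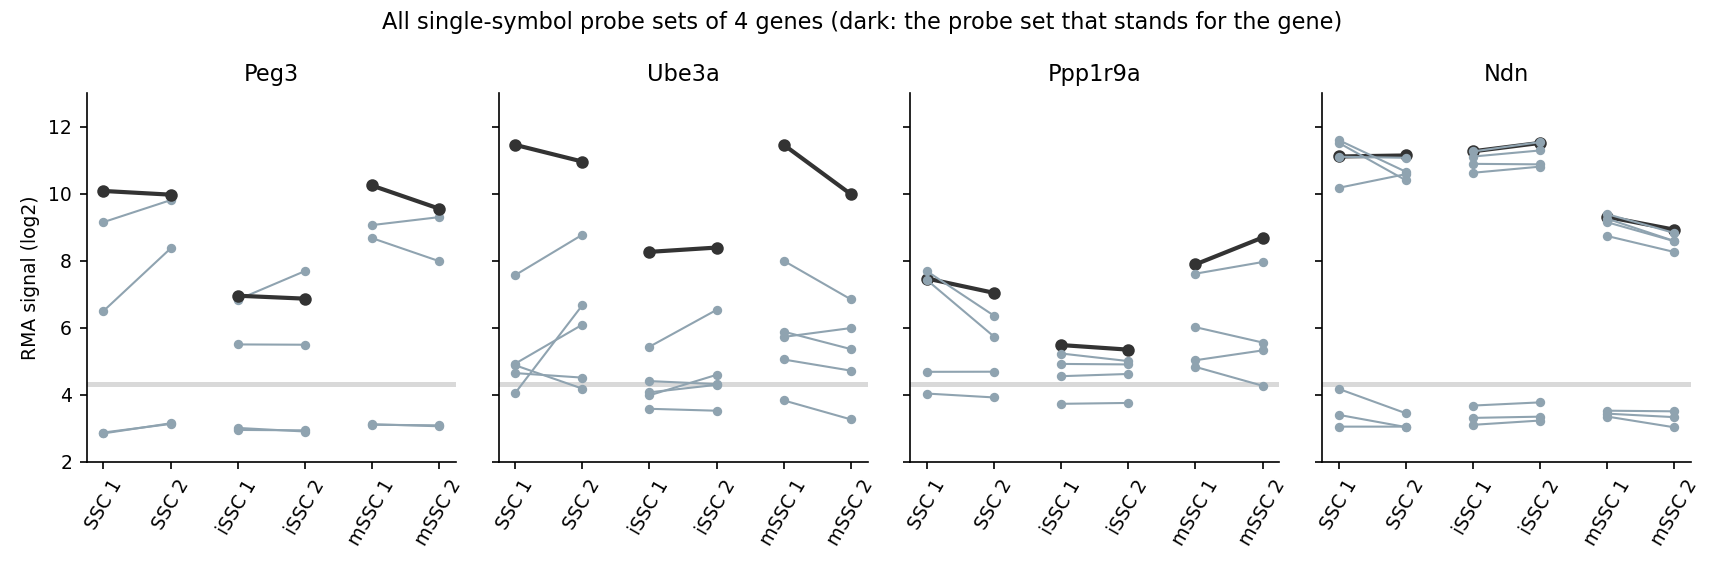
RMA signal (log2) of every single-symbol probe set of Peg3, Ube3a, Ppp1r9a and Ndn on the 6 arrays. Each line joins the arrays of a state for 1 probe set, the dark line is the probe set that stands for the gene, and the grey band is the range of lower quartiles. The brighter probe sets of Peg3, Ube3a and Ppp1r9a are lowest in iSSC and those of Ndn in mSSC, and 5 probe sets lie below the band on all arrays.

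The other members did not have this minimum on the probe sets that stand for them. The iSSC mean was the lowest of the 3 for 5 of the 10 genes, against 21.8% of all genes, but for Peg10 and Sgce the iSSC arrays overlapped those of SSC. Both iSSC arrays lay below all 4 others in 3 of the 10, against 8.13% of all genes. That pattern was more frequent among genes with a long genomic span. Of 4 classes of equal size by span, 3.13% of the shortest class had it, then 5.67%, 9.55% and 14.1% of the longest. Ube3a, Ppp1r9a, Snrpn and Sgce are in the longest class, Peg3 and Zim1 in the next, Peg10 in the one below it, and Ndn, Magel2 and Mkrn3 in the shortest. The part of gene span in the result was not tested. The difference between iSSC and the mean of SSC and mSSC was -3.05 for Peg3, -2.64 for Ube3a and -2.36 for Ppp1r9a. It was -0.80 for Peg10, -0.51 for Snrpn, -0.13 for Sgce, -0.11 for Magel2 and -0.0068 for Zim1. For Mkrn3 it was 0.35 and for Ndn 1.27. Thus, on the probe sets that stand for the genes, 1 member of each domain had its minimum in iSSC apart from all other arrays. The other members of its domain did not.

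Ndn stood apart in the other direction. It encodes necdin, a growth-restraining protein of the MAGE family that is abundant in neurons and in many stromal cells. It read 11.12 and 11.15 in SSC, 11.27 and 11.53 in iSSC, and 9.31 and 8.93 in mSSC. Both mSSC arrays were well below the other 4, and both iSSC arrays were slightly above those of SSC. Ndn was 4.03-fold lower in mSSC than in SSC (-2.01 ± 0.23) and 4.84-fold lower than in iSSC (-2.28 ± 0.23). All 5 Ndn probe sets above the lower quartile were lower in mSSC than in SSC, by differences between -2.26 and -1.88.

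Snrpn encodes SmN, a core protein of the spliceosome, and its promoter region holds the control region of the Prader-Willi domain. The only probe set named for Snrpn alone read 6.71 and 6.23 in SSC, 6.55 and 6.52 in iSSC, and 7.80 and 7.44 in mSSC. SSC and iSSC overlapped, and both mSSC arrays were above them. Snrpn was 2.22-fold higher in mSSC than in SSC (1.15 ± 0.26) and 2.12-fold higher than in iSSC (1.08 ± 0.26). The iSSC minus SSC difference was 0.07 ± 0.26.

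Another 6 probe sets were annotated to Snurf and Snrpn together, since the same transcript carries both reading frames, and were not counted as Snrpn. They read higher in mSSC on 5 of the 6. The brightest averaged 10.88 in SSC, 11.05 in iSSC and 12.70 in mSSC, a difference of 1.82 between mSSC and SSC. The next averaged 10.79, 10.89 and 12.51. On 2 others the difference was larger, with means of 7.15 in SSC, 8.88 in iSSC and 11.99 in mSSC on one, and of 9.29, 9.80 and 12.27 on the next. A dim one averaged 3.33, 3.57 and 6.61, and the last stayed below the lower quartile on every array. On the probe set that averaged 7.15 the SSC arrays differed, at 6.51 and 7.78.

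**Figure D3:**
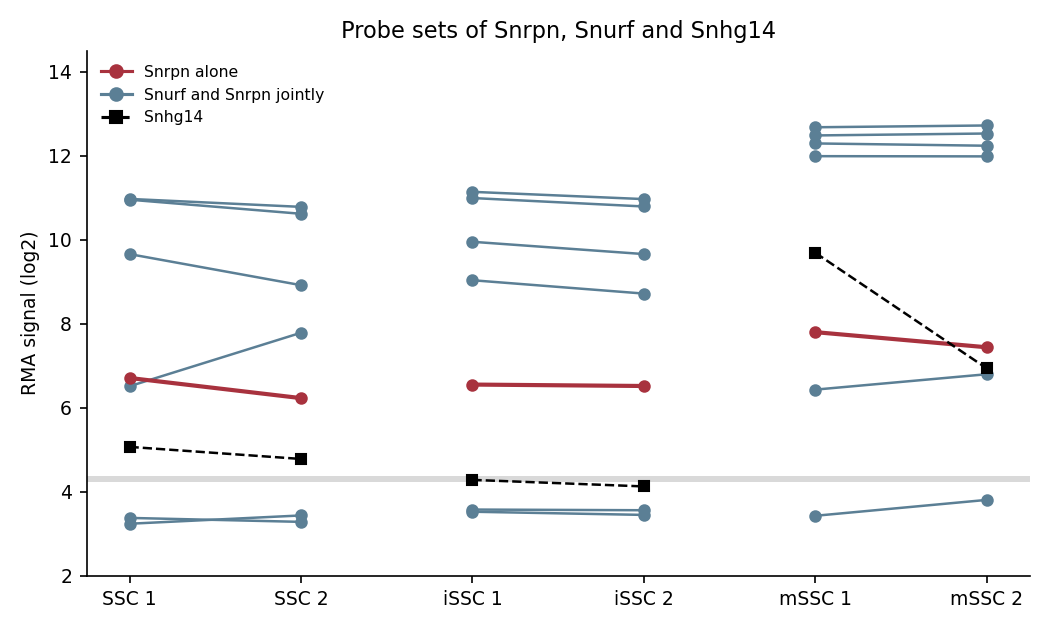
RMA signal (log2) on each array of the Snrpn probe set (red), the 6 probe sets shared by Snurf and Snrpn (blue) and Snhg14, the long RNA read from the same region (black, dashed). Lines join the arrays of a state for 1 probe set, and the grey band is the range of lower quartiles. The mSSC values lie above the others for all but the dimmest joint probe set, and the mSSC arrays differ for Snhg14, at 9.69 and 6.93.

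Peg10, a gene derived from a retrotransposon and needed for the placenta, read 4.07 and 3.93 in SSC, 4.11 and 3.73 in iSSC, and 5.65 and 5.23 in mSSC. Only the mSSC arrays were above the lower quartile of all probe sets. The log2 difference was 1.44 ± 0.25 between mSSC and SSC and 1.52 ± 0.25 between mSSC and iSSC, with no fold given because SSC and iSSC were near background. Against such signals these differences do not give the size of a difference in RNA. Sgce, which codes for epsilon-sarcoglycan and is transcribed from the same control region in the opposite direction, read between 8.37 and 8.83 on the 6 arrays. Its groups overlapped, and its largest difference between states was 0.17 ± 0.25. The other Sgce probe set was dim, with means of 3.94 in SSC, 3.51 in iSSC and 4.35 in mSSC. On it both iSSC arrays, at 3.36 and 3.66, lay below the other 4.

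Magel2 and Mkrn3 differed little between states. Magel2, a MAGE family protein that joins a ubiquitin ligase complex on endosomes, read 4.80 and 4.65 in SSC, 4.75 and 4.70 in iSSC, and 5.11 and 4.80 in mSSC, just above the lower quartile. Its mSSC and SSC arrays differed by 0.23 ± 0.22. Mkrn3, a RING finger ubiquitin ligase linked to the timing of puberty, read 6.11 and 6.80 in SSC, 7.38 and 6.86 in iSSC, and 7.30 and 6.88 in mSSC. Its iSSC and mSSC arrays were all above those of SSC, but by 0.67 ± 0.33 and 0.64 ± 0.33, and the SSC arrays differed from each other by as much.

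A gene was called at an adjusted p under 0.05 in limma over all 18194 genes. Since the members were picked with these comparisons known, their counts are descriptions and nothing is read from them. The comparisons share arrays, so their values are only set side by side. In iSSC against SSC 3 of the 10 were called, all lower in iSSC (Peg3, Ube3a and Ppp1r9a), beside 2.09% of all genes called and 1.87% called lower. In mSSC against iSSC 6 of the 10 were called, beside 17.1% of all genes. Of these, 5 were higher in mSSC (Peg3, Ube3a, Snrpn, Peg10 and Ppp1r9a) beside 7.53%, and Ndn was lower beside 9.60%. In mSSC against SSC 3 of the 10 were called, beside 18.8%, with Snrpn and Peg10 higher beside 8.22% and Ndn lower beside 10.6%. Both mSSC arrays were above all others for 4 of the 10, against 20.0% of all genes, and below them for Ndn alone, against 20.6%. One of the 4, Magel2, was above by less than 0.01. The median difference over the 10 genes was -0.04 in iSSC against SSC, 0.66 in mSSC against iSSC and 0.25 in mSSC against SSC, while over all genes it was 0.10, -0.0084 and 0.08. Without SSC replicate 1, or without either iSSC array, limma called 0 genes in iSSC against SSC, members included, with 2527, 1357 and 2000 genes at an unadjusted p under 0.05.

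**Figure D4:**
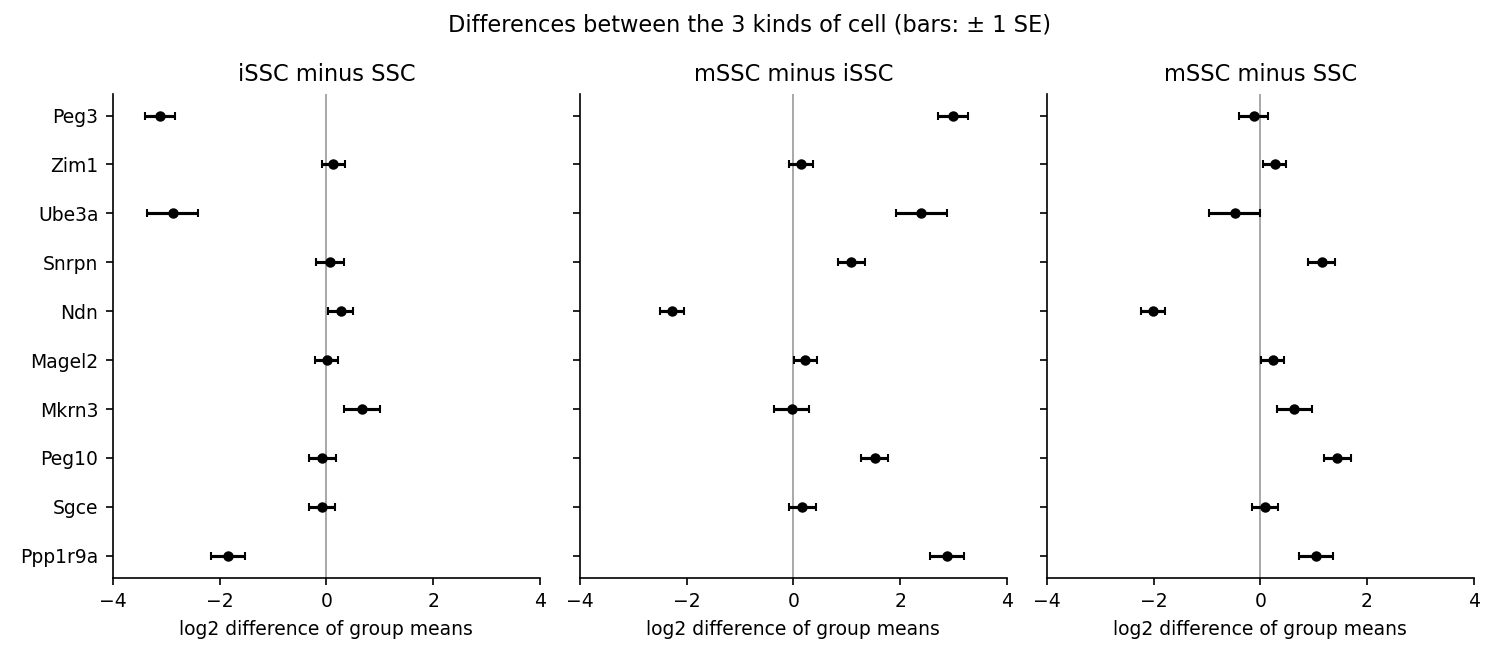
Log2 differences of group means for the 10 genes in the 3 comparisons, with bars of ± 1 SE from the limma fit over 6 arrays. Peg3, Ube3a and Ppp1r9a lie left of 0 in iSSC minus SSC and right of 0 in mSSC minus iSSC, while Ndn lies near -2 in both comparisons with mSSC.

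The genes around the 10 members were counted from a list of 41 others in the same domains, of which 34 were measured. In mSSC against SSC, 4 of the 34 rose and 5 fell, beside 18.8% of all genes called. In mSSC against iSSC 2 rose and 2 fell, beside 17.1%. In iSSC against SSC limma called 0 of 34, with 6 at an unadjusted p under 0.05. The median difference of the 34 was -0.03 in mSSC against SSC, 0.03 in iSSC against SSC and -0.04 in mSSC against iSSC. Among the 34, Snhg14 was the only one with both iSSC arrays below the other 4, beside 8.13% of all genes.

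Snhg14, the long RNA that starts in the Snrpn region, hosts small nucleolar RNAs and runs antisense to Ube3a in neurons, read 5.07 and 4.78 in SSC, 4.28 and 4.13 in iSSC, and 9.69 and 6.93 in mSSC. It rose in mSSC against SSC by 3.39 ± 0.80 (adjusted p = 0.033) and in mSSC against iSSC by 4.11 ± 0.80 (adjusted p = 0.018). The mSSC arrays stood far apart from each other. The iSSC arrays were near background, so that the size of the difference from them is not measured. The call against iSSC was lost without either iSSC array. The call against SSC was lost without either SSC array. It was also lost in the fit of the 4 SSC and mSSC arrays alone, which leaving out an iSSC array repeats. Atp10a, a phospholipid transporter beside Ube3a, differed by 0.81 ± 0.23 between mSSC and SSC (adjusted p = 0.057), and Peg12 stayed near background. Tubgcp5, a microtubule nucleation protein, fell in mSSC against SSC (-1.50 ± 0.27, adjusted p = 0.015), a call lost without mSSC replicate 2 and with the mean of its probe sets (adjusted p = 0.62). Nipa1, a magnesium transporter, fell in mSSC against iSSC (-1.88 ± 0.45, adjusted p = 0.035), a call lost in 6 of 14 alternatives.

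In the Peg3 region 5 of 8 listed genes were measured. Aurkc, a kinase of meiotic cells, rose in mSSC against SSC (2.01 ± 0.44, adjusted p = 0.026). This call was lost without either SSC array. It was also lost in the fit of the 4 SSC and mSSC arrays alone, which leaving out an iSSC array repeats. Usp29, which shares the control region of Peg3, lay near background in all groups, with means between 4.08 and 4.19. Zim2 read between 4.81 and 6.43 with overlapping groups. In 0 of the 5 were both iSSC arrays below the other 4, as they were for Peg3 and for 8.13% of all genes.

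In the Peg10 region all 18 listed genes were measured, and 2 rose and 4 fell in mSSC against SSC. Of all genes 8.22% were called higher and 10.6% lower there. Slc25a13, a mitochondrial carrier of aspartate and glutamate, rose by 3.57 ± 0.38 (adjusted p = 0.0029), and Sdhaf3, an assembly factor of succinate dehydrogenase, by 1.32 ± 0.32 (adjusted p = 0.036). Pon2, of the paraoxonase cluster beside Ppp1r9a, fell by 2.00 ± 0.25 (adjusted p = 0.0048) and Pon3 by 1.59 ± 0.41 (adjusted p = 0.043). Col1a2, a fibrillar collagen, fell by 4.35 ± 0.89 (adjusted p = 0.021) and Gng11, a G protein subunit, by 1.82 ± 0.44 (adjusted p = 0.035). Pon2 averaged 8.21 in SSC, 8.06 in iSSC and 6.21 in mSSC, the state in which Ppp1r9a read highest. The calls of Slc25a13 and Pon2 held in all 14 alternatives, that of Col1a2 was lost without SSC replicate 1 (adjusted p = 0.098), and those of Sdhaf3, Gng11 and Pon3 were lost in 7, 8 and 10 of the 14. Casd1, next to Sgce, differed by -1.32 ± 0.50 between iSSC and SSC without passing (adjusted p = 0.26). Asb4, a neighbour of the domain, showed no difference beyond 0.42 ± 0.31 between states.

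Among 23 measured partners and relatives of the members' proteins, 4 rose and 2 fell in mSSC against SSC, beside 18.8% of all genes called. Maged1, a MAGE protein related to necdin, fell by 1.67 ± 0.25 (adjusted p = 0.0083). Mkrn1, the broadly expressed relative of Mkrn3, rose by 3.35 ± 0.34 (adjusted p = 0.0026). Dmd, the dystrophin gene whose protein binds the sarcoglycan complex, rose by 3.00 ± 0.45 (adjusted p = 0.0085). Snrpb, which encodes the SmB protein that SmN replaces in neurons, differed by 0.09 ± 0.24 (adjusted p = 0.84), beside the 1.15 ± 0.26 of Snrpn. In iSSC against SSC limma called 0 of the 23, beside 2.09% of all genes, with 5 at an unadjusted p under 0.05.

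Of 18 measured genes that set, keep or remove imprints, 7 rose and 0 fell in mSSC against SSC, with 11 at an unadjusted p under 0.05, beside 8.22% of all genes called higher. In mSSC against iSSC 8 rose and 0 fell, with 13 at that level, beside 7.53% called higher. The median difference of the list was 0.84 and 1.49, against 0.08 and -0.0084 over all genes. Zfp57, the zinc finger protein that protects methylated imprints, read 5.74 and 5.46 in SSC, 5.72 and 5.78 in iSSC, and 8.40 and 8.03 in mSSC. It rose in mSSC against SSC by 2.62 ± 0.23 (adjusted p = 0.0018). The gene with the smallest p was Tet1, an enzyme that oxidizes methylated cytosine on the way to its removal, which rose by 7.28 ± 0.22 (adjusted p = 0.00021) from an SSC signal near background. Dnmt3l, the partner of the enzymes that lay imprints down, rose by 6.49 ± 0.45 (adjusted p = 0.00093), and Dppa3, which guards methylation in the early embryo, by 2.97 ± 0.47 (adjusted p = 0.0096).

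Zfp445, a zinc finger protein that acts with Zfp57 on imprints, was the 1 gene of the 18 called in iSSC against SSC. Of all genes 2.09% were called there. Zfp445 read 9.92 and 10.04 in SSC, 7.20 and 7.61 in iSSC, and 9.68 and 9.91 in mSSC. The order of states was that of Peg3, with iSSC far below and SSC slightly above mSSC. Zfp445 fell in iSSC against SSC (-2.58 ± 0.23, adjusted p = 0.021) and rose in mSSC against iSSC by 2.39 ± 0.23 (adjusted p = 0.0025). The first call was lost without SSC replicate 1, without either iSSC array and with the mean of its probe sets (adjusted p up to 0.26). Both iSSC arrays were below the other 4 for 6 of the 18 genes, beside 8.13% of all genes. Among these, Dnmt3a read 8.70 and 8.75 in iSSC, barely below the 8.80 of both SSC arrays. Tet1 was near background in both states, at 3.73 and 4.05 in iSSC and 4.22 on both SSC arrays.

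Imprinted genes elsewhere in the genome gave a comparison. Of 15 paternally expressed ones measured, 6 rose and 5 fell in mSSC against SSC, and of 20 maternally expressed ones 2 rose and 2 fell. Over all genes 8.22% were called higher and 10.6% lower there. Igf2, a fetal growth factor, fell by 3.58 ± 0.55 (adjusted p = 0.0088), Dlk1, a Notch family ligand, fell by 2.01 ± 0.48 (adjusted p = 0.034), and Mest rose by 2.61 ± 0.69 (adjusted p = 0.046). The Igf2 call held in all 14 alternatives, and those of Dlk1 and Mest were lost in 4 and 9 (adjusted p up to 0.11 and 0.17), single arrays left out among them. In iSSC against SSC limma called 0 of the 15 and 0 of the 20, beside 2.09% of all genes. Of them 7 and 4 were at an unadjusted p under 0.05. Both iSSC arrays were lowest in 3 of the 15 and 1 of the 20, beside 8.13% of all genes. Whether the members differ from these genes was not tested.

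The genes closest in profile to Peg3 over the 6 arrays, by Euclidean distance of log2 profiles each centred on its own mean, were Vamp7 (0.67), Top2b (0.70), Exoc5 (0.73), Cd2ap (0.76) and Haus3 (0.81). Ube3a was at rank 8 of all genes (0.87) and Ppp1r9a at rank 163 (1.78). The genes closest to Snrpn were Dtd2 (0.15), Aars2 (0.18), Klhdc4 (0.20), Zic2 (0.20) and Mccc2 (0.21). The genes closest to Peg10 were Shld2 (0.15), Chchd10 (0.24), Lrp2 (0.24), Dlgap5 (0.25) and Prmt8 (0.26). The distances rest on 6 arrays in 3 pairs and carry no test.

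The states differed in the markers of other cells. In mSSC against SSC 15 of 19 fibroblast and 15 of 16 macrophage markers fell. Of germ line markers 11 of 14 fell and 2 rose, and 14 of 15 pluripotency markers rose. Over all genes 10.6% were called lower and 8.22% higher in that comparison. In iSSC against SSC 2 fibroblast and 6 macrophage markers fell, beside 1.87% of all genes called lower. There limma called 0 germ line and 0 pluripotency markers, beside 2.09% of all genes. Of these markers 6 and 4 were at an unadjusted p under 0.05. Of Sertoli cell markers 9 of 12 fell and 1 rose in mSSC against SSC and 3 fell in iSSC against SSC. Of the 4 Leydig cell markers measured 0 were called, with 1 at an unadjusted p under 0.05 in mSSC against SSC. The summed signal of the fibroblast markers, on the log2 scale, ranged over 16.04 to 16.65 in SSC, 14.33 to 14.75 in iSSC and 13.39 to 14.33 in mSSC, and that of the macrophage markers over 15.46 to 16.08, 13.72 to 14.45 and 10.84 to 11.93. Of the macrophage markers 2 were below the lower quartile in mSSC, and of the fibroblast markers 0. The summed germ line markers ranged over 14.72 to 14.97 in SSC, 14.54 to 14.63 in iSSC and 13.20 to 13.29 in mSSC. The summed Sertoli cell markers ranged over 14.06 to 14.26 in SSC, 11.65 to 12.93 in iSSC and 13.05 to 13.24 in mSSC. This sum was lowest in iSSC, but Rhox5 alone read 12.82 and 13.07 in mSSC, against 5.39 to 6.23 on the other arrays. The median of the Sertoli cell markers was 7.49 and 7.67 in SSC and 6.29 and 6.36 in iSSC. It was lowest in mSSC, at 5.87 and 5.99. Fibroblast and macrophage sums were lower in iSSC than in SSC, as Peg3, Ube3a and Ppp1r9a were, but reached their lowest values in mSSC. Macrophage and germ line sums were lowest in mSSC, as Ndn was, and the fibroblast sums of mSSC and iSSC met at 14.33. The part of these cells in the results was not tested.

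**Figure D5:**
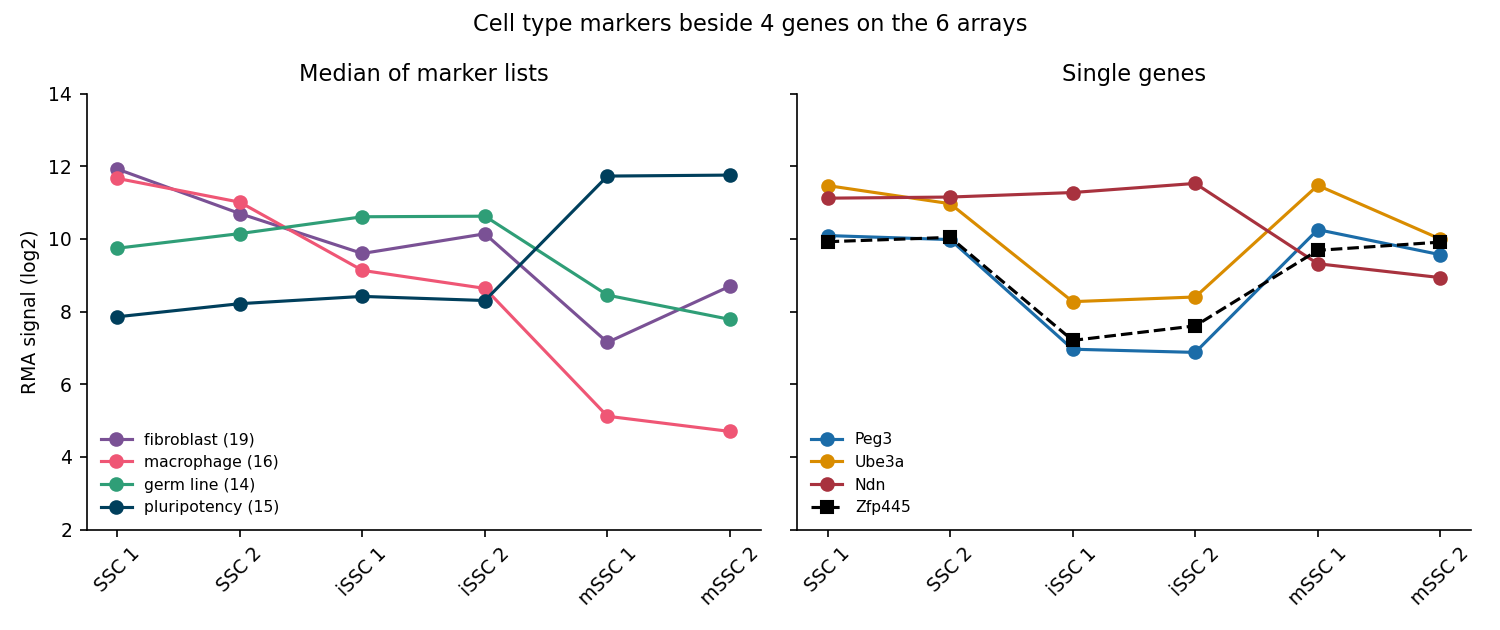
Left, median RMA signal (log2) of 4 marker lists on each array, with the number of genes in brackets. Right, the RMA signal of Peg3, Ube3a, Ndn and Zfp445 on the same arrays. Lines only join points of 1 list or gene. The fibroblast medians run from 11.92 and 10.70 in SSC to 7.15 and 8.70 in mSSC with iSSC between, while Peg3, Ube3a and Zfp445 have their lowest values in iSSC.

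The arrays of a state resembled each other, with correlations over all genes of 0.972 in SSC, 0.990 in iSSC and 0.972 in mSSC, against 0.949 to 0.970 between SSC and iSSC. The mSSC arrays correlated with the others at 0.884 to 0.919. For SSC, iSSC and mSSC the median SD of a gene was 0.247, 0.139 and 0.206, and for the members alone it was 0.240, 0.131 and 0.282. The 3′ minus 5′ signal of the beta-actin control probes, a sign of RNA degradation, was 0.89 on the first SSC array and between 0.12 and 0.61 on the others. That array also had the highest difference for the other 3 controls: 0.25 against -0.35 to -0.10 for Gapdh, 2.55 against 1.12 to 2.07 for the transferrin receptor, and 2.73 against 0.88 to 1.32 for pyruvate carboxylase. Without it 0 genes were called in iSSC against SSC, as given above, and the part of RNA quality in the results was not tested.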

How the data were processed

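The deposited values are log2 signals that the authors made with RMA, per the submitters' processing notes. The sources used here do not give its version. RMA subtracts background, normalizes the arrays by quantiles and gives 1 summary value per probe set. Of 45101 probe sets 34958 had 1 gene symbol, 932 had several and 9211 were unnamed in the platform annotation used. Of the former 34754 matched the RefSeq gene table, and the probe set with the highest mean stood for each of 18194 genes, without a filter on low values; 0 deposited columns were left out. Array medians lay between 5.83 and 5.93.

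Tests were 2-sided and used limma (3.58.1, R 4.3.3), fitted to the means of the 3 groups with a shared, moderated variance and Benjamini-Hochberg adjustment over all genes of a comparison. The calling procedure was tested on simulated data with known changes, which does not test the calls made on these arrays. The 10 members and the gene lists were chosen with earlier results of these data known. Named besides the members were called genes of the 3 domains, a fixed panel of neighbours, relatives, imprinting factors and imprinted genes, and, from each other list, some of the 4 called genes with the smallest p per comparison. Alternatives were a replicate term, dropping dim genes, fitting 4 arrays alone, a variance trend, quantile and median scaling, other ways to combine probe sets, a minimum 2-fold change, and leaving out each array. Leaving out an array of the group not compared repeats the fit of 4 arrays alone. The 14 alternatives of a call therefore hold that fit more than once.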

Additional observations from a re-analysis of the deposited data

How the results depend on the processing

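Calls in iSSC against SSC depended most on the processing. The 381 calls became 148 with the replicate number as a block, 29 with the mean of a gene's probe sets, 113 with the most variable probe set, 261 with arrays centred on their median and 290 after quantile normalization, and 0 to 503 when 1 array was left out. The 3 members called there became 1 with the replicate block, 1 with median centring, 0 with the mean of probe sets, 1 with the most variable probe set, and 0 to 3 without 1 array. In mSSC against SSC the 3425 calls became 1966 in a fit of 4 arrays and 1966 to 3462 without 1 array, the members called 2 to 3 without 1 array and 4 with quantile or median scaling, where Ppp1r9a was added, and the other domain genes, 9 in all, 4 and 4 to 7. In mSSC against iSSC the 3117 calls ranged over 604 to 3724 without 1 array, the 6 members over 3 to 6 and the 4 other domain genes over 0 to 6. The cause of these ranges was not tested. Median centring raised the median difference of all genes by 0.26 for mSSC minus SSC and 0.18 for mSSC minus iSSC, and the share of calls that were higher from 43.7% (1495 of 3425) to 63.8% and from 44.0% to 56.9%. Members with both iSSC arrays lowest were 3, but 5 after quantile normalization, with Magel2 and Peg10 added, 4 with the most variable probe set, with Sgce added, and 3 to 5 without 1 array. Ndn stayed called in all 14 alternatives in both comparisons with mSSC, as did Peg3 and Ppp1r9a in mSSC against iSSC. Against SSC and against iSSC, the mSSC calls of Snrpn were lost in 5 and 4 of 14, those of Peg10 in 1 and 2, and that of Ube3a against iSSC in 2. The 5 of Snrpn include the fit of 4 arrays and its repeats without an iSSC array. Without mSSC replicate 1 the members called in mSSC against SSC were Ndn and Ppp1r9a. In iSSC against SSC Peg3 lost its call in 4 of 14, Ube3a in 8 and Ppp1r9a in 9. Same-numbered arrays correlated in their deviations from the group means at 0.120, 0.068 and 0.171, so the numbers were not taken to pair the samples.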
